A study of Kluyveromyces lactis with 8 samples.

Results

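IME1 and PHO92 are a pair of genes that, in the baker's yeast Saccharomyces cerevisiae, act at the start of meiosis, and their transcript levels were followed in 4 strains of the milk yeast Kluyveromyces lactis. IME1 was taken by its symbol in the reference gene table (KLLA0E05963g) and PHO92 by its identifier KLLA0E02443g, which gives 2 of the 5076 genes listed in each library. Both were chosen by their measured FPKM in these same strains (FPKM counts fragments by gene length in kilobases and by library size), so their levels and changes are given as a description with no test. The strains were sir2∆, sir4∆, sum1∆ and wild type (WT), each with 2 libraries. All 4 were of mating type a (MATa) and lacked the silent mating-type cassettes HMR and HML, so WT carries those deletions as well. Each group is 1 strain, grown at 30 °C in rich glucose medium (YPD) and harvested in early log phase at an optical density of 1. The series design calls the 2 libraries of a strain technical replicates, so every error and p-value below covers only the spread between libraries and not the variation between cultures.

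In S. cerevisiae, Ime1 is the master activator of meiotic entry. It joins the DNA-binding protein Ume6 at the promoters of early meiotic genes and turns them on, and its own promoter is kept silent by glucose, by nitrogen and, in haploid cells, by the repressor Rme1. Pho92 carries a YTH domain, which reads N6-methyladenosine (m6A), a mark placed on messenger RNA in meiosis by a writer complex around the methyltransferase Ime4. Pho92 also contacts the CCR4-NOT complex, which removes poly(A) tails, and its name comes from its effect on the messenger RNA of PHO4, the activator of the phosphate response. Sum1 is a DNA-binding repressor of sporulation genes in S. cerevisiae, where it works with a deacetylase of the Sir2 family. Sir2 is an NAD-dependent deacetylase and Sir4 a structural silencing protein. In rich glucose medium S. cerevisiae keeps IME1 off.

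SUM1 was read as a check of the sum1∆ label. Both libraries of sum1∆ had SUM1 at 0, and the other 6 had it between 22.1 and 59.8 FPKM. SIR2 and SIR4 are missing as symbols from the gene table. One unnamed gene singled out on its values, KLLA0F14663g, stood at 0.0513 and 0 FPKM in sir2∆ and at 73.2 and 71.0 FPKM in WT. Because those values chose it, it does not check the sir2∆ label, and neither that label nor the sir4∆ label was checked by its deleted gene. HMLALPHA1 and HMLALPHA2, genes of the HML cassette, were listed at 0 in all 8 libraries. The a-cell receptor gene STE2 was present at 8.10 to 10.1 FPKM across the libraries, and STE3, the receptor gene of alpha cells, at 10.98 to 18.2 FPKM. The estimated reads assigned to genes ran from 10.1 to 26.2 M per library, with both sir4∆ libraries among the shallow ones and both sum1∆ libraries among the deep ones.

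IME1 was many times higher in sir2∆ and sum1∆ than in WT, and low in sir4∆. It stood at 35.7 and 33.6 FPKM in the sir2∆ libraries, at 2.72 and 3.75 FPKM in sir4∆, at 59.9 and 57.5 FPKM in sum1∆ and at 4.31 and 3.46 FPKM in WT. The sir4∆ and WT libraries overlapped, while sir2∆ lay above both and sum1∆ above sir2∆ with no overlap. The mean level in sir2∆ was 34.6 ± 1.47 FPKM, 8.92 times the WT mean of 3.88 ± 0.595 FPKM (SD, n = 2 libraries each). In sum1∆ the mean was 58.7 ± 1.66 FPKM, 15.1 times that of WT, and in sir4∆ it was 3.24 ± 0.729 FPKM, 0.833 times that of WT. Among all genes of a library IME1 lay at percentile 29.1 and 27.3 in sir2∆, 2.74 and 3.13 in sir4∆, 46.2 and 44.6 in sum1∆, and 3.19 and 2.78 in WT. IME1 was thus among the least abundant transcripts in WT and sir4∆ and near the middle of all genes in sum1∆.

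PHO92 was high in the same strains, with a larger step. It stood at 77.7 and 86.3 FPKM in sir2∆, at 3.43 and 4.35 FPKM in sir4∆, at 90.8 and 90.2 FPKM in sum1∆ and at 3.07 and 3.57 FPKM in WT. The sir4∆ and WT libraries overlapped again, and the sir2∆ and sum1∆ libraries, which did not overlap, lay close together and far above them. The sir2∆ mean of 82.0 ± 6.07 FPKM was 24.7 times the WT mean of 3.32 ± 0.359 FPKM, and the sum1∆ mean of 90.5 ± 0.394 FPKM was 27.3 times that of WT (SD, n = 2 libraries each). The sir4∆ mean of 3.89 ± 0.651 FPKM was 1.17 times that of WT. PHO92 lay at percentile 55.5 and 58.7 of all genes in sir2∆, 3.09 and 3.49 in sir4∆, 59.1 and 58.6 in sum1∆, and 2.56 and 2.84 in WT. In bulk RNA a moderate level in all cells and a high level in a few cells cannot be told apart.

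**Figure D1:**
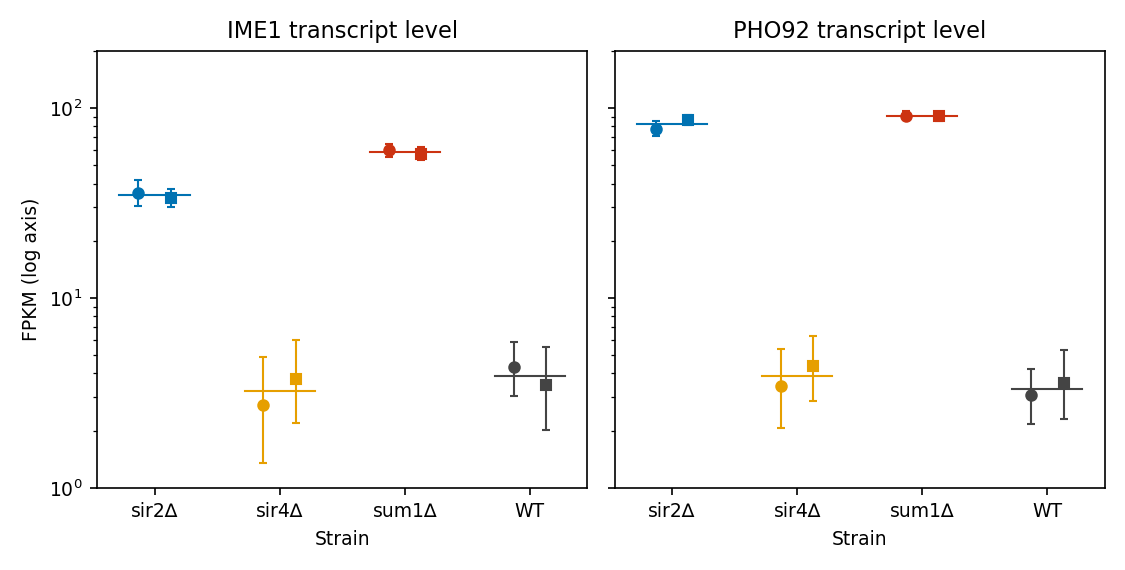
FPKM of IME1 (left) and PHO92 (right) in each library on a log axis, by strain; circles are replicate 1, squares replicate 2, horizontal lines the mean of the 2 libraries, and error bars the exact Poisson interval (95%) of the estimated reads. For both genes the sir4∆ and WT libraries lie between 2.72 and 4.35 FPKM and the sir2∆ and sum1∆ libraries at 33.6 FPKM or more.

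The low levels rest on few reads. IME1, with a coding length of 636 bases, was covered by an estimated 166 and 335 reads in sir2∆, 11 and 17 reads in sir4∆ and 611 and 695 reads in sum1∆, against 39 and 17 reads in WT. PHO92, with a coding length of 795 bases, had an estimated 495 and 1178 reads in sir2∆, 19 and 27 reads in sir4∆ and 1268 and 1491 reads in sum1∆, against 38 and 24 reads in WT. The exact Poisson interval (95%) of IME1 in sir4∆ ran from 1.36 to 4.87 FPKM in replicate 1 and from 2.19 to 6.01 FPKM in replicate 2. In WT it ran from 3.06 to 5.89 FPKM and from 2.02 to 5.55 FPKM. These intervals cover counting error only. Depth therefore does not resolve a difference in IME1 or PHO92 between sir4∆ and WT of the size seen here.

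After adding 1 FPKM and taking log2, a step that shrinks the changes of weakly expressed genes, a limma fit across all tested genes gave IME1 a log2 fold change of 2.87 in sir2∆, -0.21 in sir4∆ and 3.62 in sum1∆ against WT (SE 0.13 each). The same fit gave PHO92 4.27, 0.18 and 4.41 (SE 0.11 each). The sir4∆ values hung on single libraries. Without sir4∆ replicate 1 IME1 was at -0.03 and PHO92 at 0.31, and without sir4∆ replicate 2 IME1 was at -0.39 and PHO92 at 0.04. The 3 comparisons share the WT libraries.

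The genes differed from each other between sir2∆ and sum1∆. The IME1 mean in sir2∆ was 0.59 times that in sum1∆ (log2 fold change -0.74, SE 0.13), while the PHO92 mean in sir2∆ was 0.906 times that in sum1∆ (log2 fold change -0.14, SE 0.11). The ratio of PHO92 to IME1, both as FPKM and thus per length, was 2.18 and 2.57 in sir2∆, 1.26 and 1.16 in sir4∆, 1.52 and 1.57 in sum1∆, and 0.712 and 1.03 in WT. PHO92 exceeded IME1 in every library of the 3 mutants, and in WT the order of the genes changed between the libraries. In every sir4∆ and WT library the exact Poisson intervals of the genes overlapped, so the reads do not resolve their order there.

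Genes that act with IME1 and PHO92 in S. cerevisiae were then counted over 7 lists holding 92 names, of which 70 had an entry in the table and all 70 were tested. A gene was called at a limma adjusted p below 0.05 and a log2 fold change of at least 1 in size. In sir2∆ 13 of the 70 genes rose and none fell, where 4.9% of all tested genes rose and 0.717% fell. In sum1∆ 15 rose and 1 fell, where 7.73% of all tested genes rose and 2.87% fell. In sir4∆ none rose and 1 fell, where 0.617% of all tested genes rose and 0.737% fell. The lists were chosen with earlier results of these data known, so these counts are a description and not separate support. SPO11, counted as higher in sir2∆ and sum1∆, passed the filter of a mean of 1 FPKM only through those strains. Median log2 fold changes of the 70 genes stood near 0, at 0.04 in sir2∆, 0.005 in sir4∆ and 0.03 in sum1∆, beside -0.01 for all tested genes in each comparison. With quantile normalization the split was 11 higher and 3 lower in sir2∆ and 10 higher and 3 lower in sum1∆. Calls of all tested genes shifted too, from 246 higher and 36 lower to 193 and 90 in sir2∆. In sum1∆ they went from 388 higher and 144 lower to 313 and 199.

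**Figure D2:**
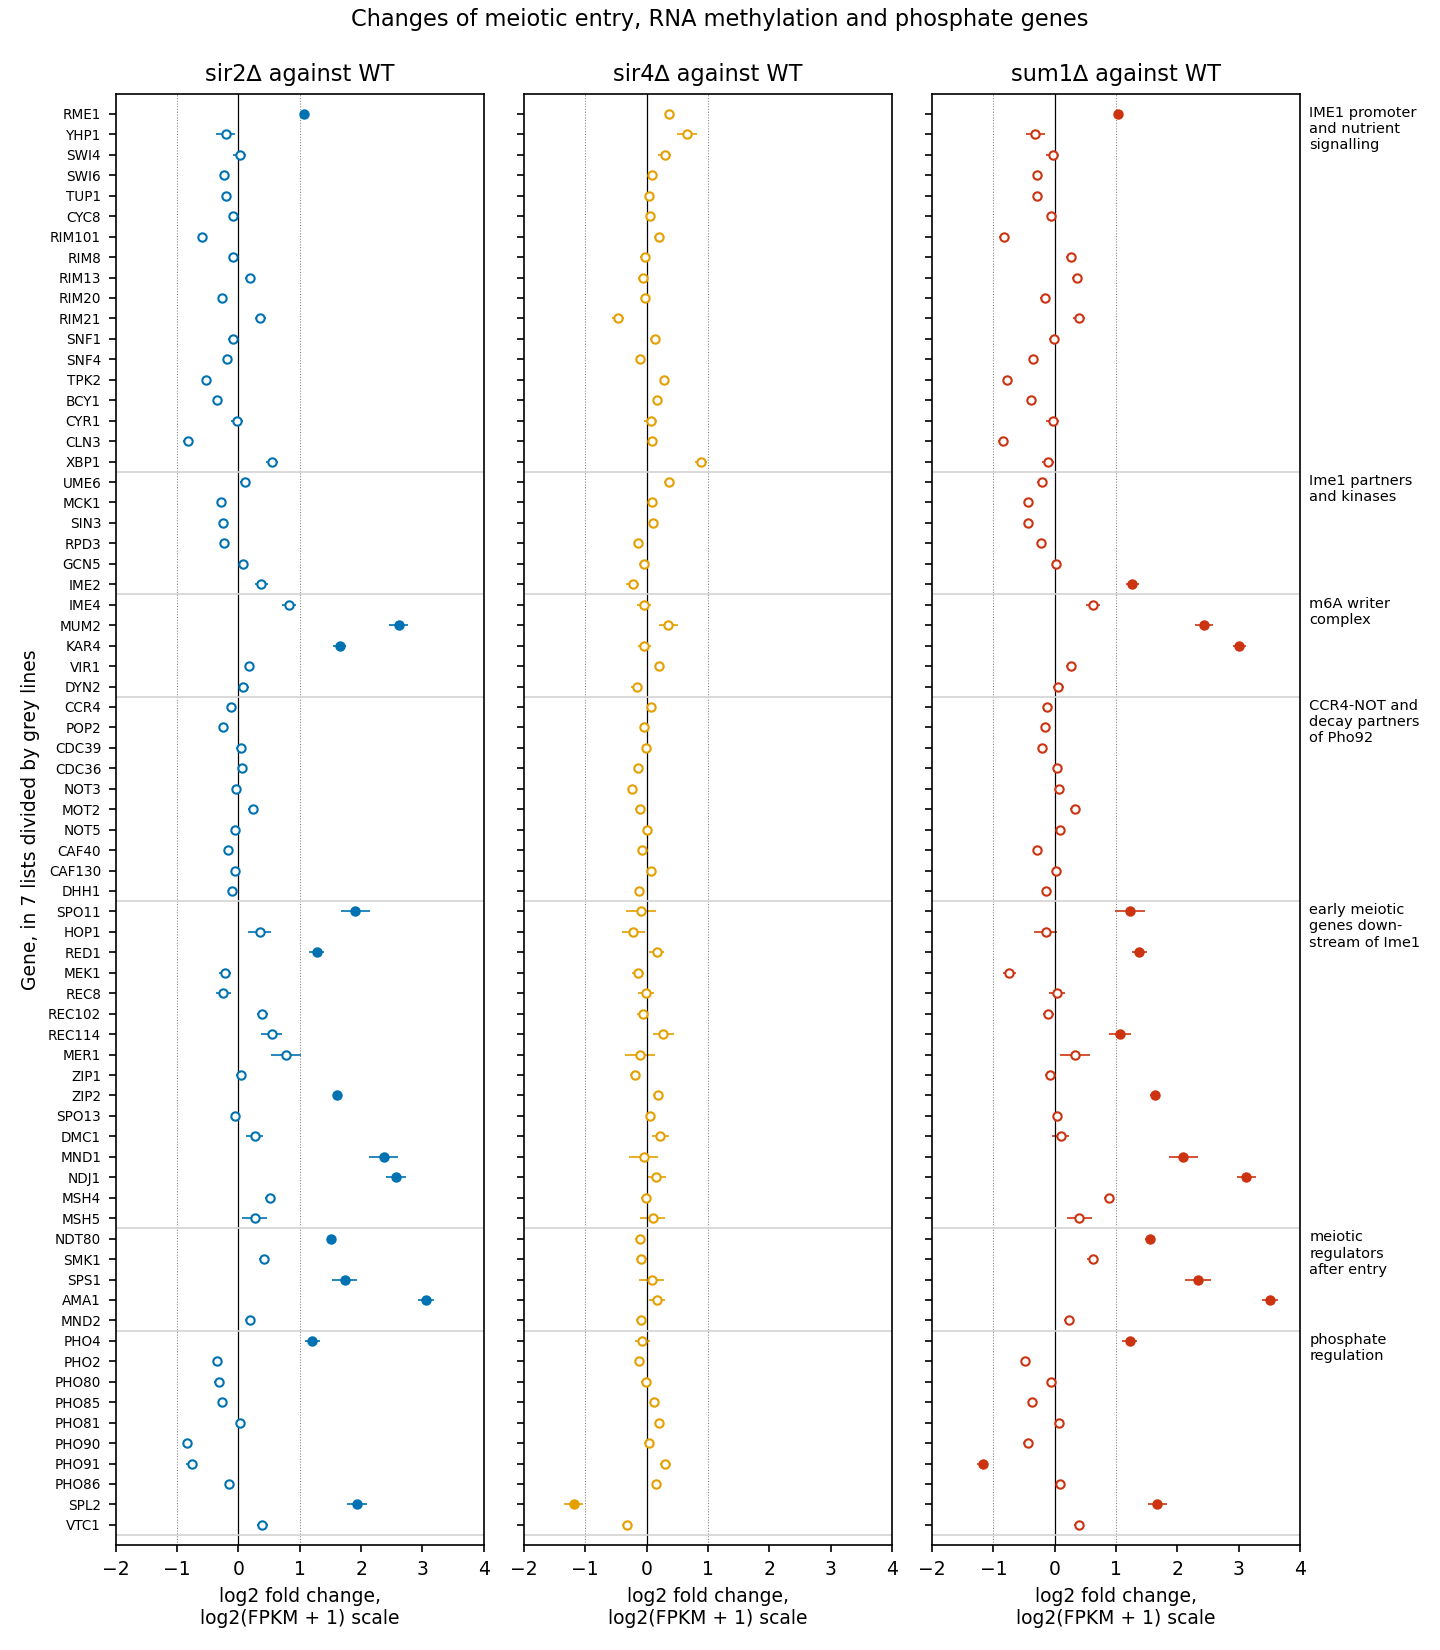
Log2 fold change of the 70 pathway genes against WT in sir2∆, sir4∆ and sum1∆ (left to right), with the limma standard error as a bar; filled points are called genes, dotted lines the fold threshold, and grey lines divide the 7 lists. In sir2∆ and sum1∆ filled points lie to the right in the m6A, early meiotic, after-entry and phosphate lists and for RME1, with IME2 added in sum1∆. The filled points to the left are PHO91 in sum1∆ and SPL2 in sir4∆, both of the phosphate list. The 10 CCR4-NOT and decay genes stay inside the dotted lines in all 3 panels.

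Of 18 tested regulators that control the IME1 promoter or signal nutrients to it, 1 rose in sir2∆ and in sum1∆, or 5.56%, which is near the 4.9% of all tested genes that rose in sir2∆ and below the 7.73% that rose in sum1∆. The gene was RME1, the haploid repressor of IME1 in S. cerevisiae, whose K. lactis counterpart, also known as Mts1, is known to promote mating-type switching. RME1 stood at 60.1 and 57.3 FPKM in sir2∆, 35.0 and 36.2 FPKM in sir4∆, 57.5 and 56.4 FPKM in sum1∆, and 27.0 and 28.02 FPKM in WT. No library of a mutant overlapped with WT, and sir2∆ and sum1∆ overlapped with each other. Log2 fold changes were 1.07 in sir2∆ (SE 0.06, adjusted p = 2.57e-06) and 1.02 in sum1∆ (SE 0.06, adjusted p = 2.13e-06), so both passed the fold threshold narrowly, and in sir4∆ the value was 0.36 (adjusted p = 0.00233), short of it. Without WT replicate 1 the sum1∆ value was 1.00, just under the threshold, and at a pseudocount of 5 the sir2∆ and sum1∆ values were 0.97 and 0.93. Quantile normalization put the sum1∆ value at 0.89, also under the threshold. RME1 and IME1 were thus both higher in sir2∆ and sum1∆. Other genes of the list moved by less than the threshold, such as CLN3, a G1 cyclin that opposes meiosis, at -0.83 in sir2∆ and -0.85 in sum1∆ (adjusted p = 6.31e-05 and 2.79e-05), and RIM101, a transcription factor of the alkaline response upstream of IME1, at -0.59 and -0.83. XBP1, a stress-induced repressor, stood at 0.89 in sir4∆ and was called there at 1.01 without sir4∆ replicate 2.

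UME6, which anchors Ime1 at its targets, moved little, at 23.9 and 23.3 FPKM in sir2∆, 30.0 and 27.0 FPKM in sir4∆, 18.2 and 19.3 FPKM in sum1∆, and 21.0 and 22.9 FPKM in WT, and was not called in any mutant. IME2, the kinase gene that Ime1 activates early, stood at 8.72 and 7.78 FPKM in sir2∆, 5.54 and 4.66 FPKM in sir4∆, 16.4 and 15.8 FPKM in sum1∆, and 6.19 and 6.05 FPKM in WT. Its levels were highest in both sum1∆ libraries. It was the 1 gene called by limma of 6 tested partners and kinases, in sum1∆ alone, where 7.73% of all tested genes rose. Its log2 fold change there was 1.26 (SE 0.11, adjusted p = 2.06e-05). IME2 fell short of the threshold at 0.92 (pseudocount 5) and 0.78 (quantile normalization). In sir2∆ it was at 0.38 (adjusted p = 0.0156), short of the fold threshold. The direct test of sir2∆ against sum1∆ gave -0.89 (SE 0.11, adjusted p = 0.000528), also short of the threshold, and with quantile normalization -1.36, past it. IME2 thus stood lower in sir2∆ than in sum1∆, as IME1 did. RIM11 and RIM15 had no entry.

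In the m6A writer list 2 of 5 tested genes, MUM2 and KAR4, rose in sir2∆ and in sum1∆. Of all tested genes 4.9% rose in sir2∆ and 7.73% in sum1∆. MUM2, a core subunit of the writer, stood at 34.0 and 29.9 FPKM in sir2∆, 6.49 and 5.32 FPKM in sir4∆, 26.1 and 30.1 FPKM in sum1∆, and 3.68 and 5.20 FPKM in WT. The sir2∆ and sum1∆ libraries overlapped and lay above all others. Its log2 fold change was 2.61 in sir2∆ (SE 0.15, adjusted p = 4.93e-06) and 2.43 in sum1∆ (SE 0.15, adjusted p = 4.28e-06). IME4, the catalytic subunit, stood at 13.9 and 15.6 FPKM in sir2∆, 6.78 and 8.55 FPKM in sir4∆, 12.9 and 12.6 FPKM in sum1∆, and 8.31 and 7.51 FPKM in WT, and its changes of 0.82 in sir2∆ and 0.62 in sum1∆ (adjusted p = 0.000618 and 0.00182) were short of the fold threshold. KAR4, a writer subunit that also acts in mating, stood at 25.4 and 28.4 FPKM in sir2∆, 8.35 and 6.95 FPKM in sir4∆, 75.3 and 65.3 FPKM in sum1∆, and 7.95 and 7.79 FPKM in WT. It was the 1 pathway gene called between sir2∆ and sum1∆ (log2 fold change -1.35, SE 0.11, adjusted p = 6.82e-05), where 1.73% of all tested genes were called higher and 0.677% lower in sir2∆. VIR1 and DYN2 were not called, and SLZ1 had no entry.

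Genes of the CCR4-NOT complex and of the helicase DHH1, the decay machinery that Pho92 meets in S. cerevisiae, stayed short of the fold threshold. None of the 10 tested genes was called by limma in any mutant, and the medians were -0.05 in sir2∆, -0.06 in sir4∆ and -0.06 in sum1∆. Of all tested genes 5.62% were called in either direction in sir2∆, 1.35% in sir4∆ and 10.6% in sum1∆. With 10 genes, no call is near that background. POP2, which encodes the deadenylase subunit bound by Pho92 in S. cerevisiae, stood at 80.7 and 77.1 FPKM in sir2∆, 92.6 and 88.9 FPKM in sir4∆, 81.7 and 85.1 FPKM in sum1∆, and 94.1 and 93.3 FPKM in WT. As FPKM, and thus per length, PHO92 stood near POP2 in sir2∆ and sum1∆ and far below it in sir4∆ and WT.

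Among 16 tested early genes downstream of Ime1 in S. cerevisiae, 5 rose in sir2∆ and 6 in sum1∆, and none was called in sir4∆. Of all tested genes 4.9% rose in sir2∆ and 7.73% in sum1∆, and 1.35% were called in either direction in sir4∆. The 5 were NDJ1, which acts at meiotic telomeres, MND1, SPO11 and ZIP2, which act in recombination and chromosome pairing, and RED1, an axis protein, and REC114, a partner of Spo11, joined them in sum1∆. NDJ1 stood at 11.97 and 12.3 FPKM in sir2∆, 1.36 and 1.58 FPKM in sir4∆, 17.5 and 19.1 FPKM in sum1∆, and 1.58 and 0.899 FPKM in WT. ZIP2 stood at 23.9 and 24.2 FPKM in sir2∆, 8.26 and 8.36 FPKM in sir4∆, 23.4 and 25.6 FPKM in sum1∆, and 7.40 and 6.996 FPKM in WT (log2 fold change 1.61 in sir2∆ and 1.64 in sum1∆). SPO11 stood at 4.26 and 2.59 FPKM in sir2∆, 0 and 0.190 FPKM in sir4∆, 1.56 and 1.85 FPKM in sum1∆, and 0.143 and 0.176 FPKM in WT. It passed the filter of a mean of 1 FPKM only through sir2∆ and sum1∆, so its place in these counts is no support for them. Without sir2∆ replicate 1 its mean over the libraries was 0.931 FPKM, it was not tested, and 4 genes of the list rose in sir2∆. The other 10 genes of the list were not called in sir2∆ or sum1∆, among them ZIP1, DMC1 and SPO13, so the list did not move as a block. Its median was 0.45 in sir2∆ and 0.36 in sum1∆. Some uncalled genes moved short of the threshold, in both directions. MSH4 was at 0.51 in sir2∆ and 0.89 in sum1∆, and MEK1 at -0.22 and -0.74. With a pseudocount of 5 SPO11 (0.70 and 0.38), RED1 (0.87 and 0.95) and, in sum1∆, REC114 (0.59) lost their calls, as SPO11 (0.72 and 0.55) and RED1 (0.60 and 0.80) did with quantile normalization. REC114 in sum1∆ was at 1.06, at 0.89 and not called without WT replicate 1, just under 1.00 and not called without sum1∆ replicate 2, and at -0.11 with quantile normalization. That setting also called HOP1, REC8 and MSH5 lower in sir2∆ (-1.21, -1.19 and -1.31) and HOP1 and MEK1 lower in sum1∆ (-1.20 and -1.46). Of all tested genes it called 90 lower in sir2∆, against 36 in the main fit, and 199 in sum1∆, against 144. Without WT replicate 2 MER1 was called higher in sir2∆ at 1.04.

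Of 5 tested regulators that act after entry, 3 rose in both sir2∆ and sum1∆ and none in sir4∆. Of all tested genes 4.9% rose in sir2∆, 0.617% in sir4∆ and 7.73% in sum1∆. NDT80, the activator of middle meiotic genes, stood at 55.3 and 49.0 FPKM in sir2∆, 17.1 and 15.2 FPKM in sir4∆, 53.5 and 53.2 FPKM in sum1∆, and 17.2 and 17.9 FPKM in WT. It rose by 1.52 on the log2 scale in sir2∆ (SE 0.08, adjusted p = 2.57e-06) and by 1.55 in sum1∆ (SE 0.08, adjusted p = 1.49e-06). AMA1, an activator of the anaphase-promoting complex in meiosis, stood at 17.6 and 14.8 FPKM in sir2∆, 1.504 and 1.16 FPKM in sir4∆, 22.7 and 22.4 FPKM in sum1∆, and 0.946 and 1.18 FPKM in WT. SPS1, a kinase of spore formation, stood at 31.4 and 29.3 FPKM in sir2∆, 7.10 and 11.3 FPKM in sir4∆, 46.1 and 47.1 FPKM in sum1∆, and 6.91 and 10.2 FPKM in WT. For all 3 genes the sir2∆ and sum1∆ libraries lay above all sir4∆ and WT libraries. SMK1 (0.42 and 0.62) and MND2 were not called.

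In the phosphate list, included because Pho92 acts on PHO4 in S. cerevisiae, 2 of 10 tested genes rose in sir2∆ and in sum1∆. Of all tested genes 4.9% rose in sir2∆, and 7.73% rose and 2.87% fell in sum1∆. The list median was -0.21 in sir2∆ and 0.007 in sum1∆. PHO4 stood at 50.6 and 60.7 FPKM in sir2∆, 25.2 and 19.8 FPKM in sir4∆, 55.3 and 56.8 FPKM in sum1∆, and 24.1 and 22.9 FPKM in WT. It was above WT in every sir2∆ and sum1∆ library, by 1.20 (SE 0.12, adjusted p = 9.61e-05) and 1.22 (SE 0.12, adjusted p = 4.98e-05) on the log2 scale. SPL2, a regulator of phosphate uptake, stood at 198 and 275 FPKM in sir2∆, 29.0 and 23.2 FPKM in sir4∆, 191 and 199 FPKM in sum1∆, and 56.5 and 64.6 FPKM in WT. SPL2 rose in sir2∆ (1.93) and sum1∆ (1.67). In sir4∆ SPL2 was the 1 pathway gene that fell (log2 fold change -1.19, SE 0.16, adjusted p = 0.00133), where 0.737% of all tested genes fell. PHO91, a vacuolar phosphate transporter, fell in sum1∆ to 50.7 and 54.3 FPKM, against 113 and 127 FPKM in WT (log2 fold change -1.18, SE 0.09, adjusted p = 1.36e-05). Transcripts of PHO2, the partner of Pho4, were at -0.35 in sir2∆ and -0.48 in sum1∆ and were not called.

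The genes beside IME1 and PHO92 were examined because the libraries keep no strand, so that reads from an overlapping or antisense transcript cannot be told from reads of the gene itself. Of the 12 genes lying within 3 positions of either gene in the reference order, 1 was called in sir2∆, none in sir4∆ and 2 in sum1∆, beside 5.62%, 1.35% and 10.6% of all tested genes called in either direction. With 12 genes these counts are near that background. RPL43B, a ribosomal protein gene directly beside IME1, stood at 2781 and 2747 FPKM in sir2∆, 3324 and 3381 FPKM in sir4∆, 2616 and 2493 FPKM in sum1∆, and 3509 and 3541 FPKM in WT, and its log2 fold changes were -0.35 in sir2∆ and -0.46 in sum1∆. FIP1, a polyadenylation factor gene on the other side, was at 0.29 in sir2∆ and 0.70 in sum1∆ (adjusted p = 0.00335 and 1.78e-05), short of the fold threshold. KLLA0E05897g, without a symbol and 3 positions from IME1, fell to 22.1 and 20.9 FPKM in sir2∆ and to 36.5 and 37.7 FPKM in sum1∆, against 101 and 96.0 FPKM in WT, and stood at 97.2 and 95.7 FPKM in sir4∆. Its log2 fold change was -2.14 in sir2∆ (SE 0.06, adjusted p = 4.81e-08) and -1.38 in sum1∆ (SE 0.06, adjusted p = 3.51e-07), opposite in sign to that of IME1. Beside PHO92, CAT5, a gene of coenzyme Q synthesis, was at -0.34 in sir2∆ and -0.36 in sum1∆, and KLLA0E02465g at -0.43 and -0.58. BCS1, an assembly factor of respiratory complex III lying 2 positions away, rose in sum1∆ by 1.20 (SE 0.08, adjusted p = 4.17e-06) and was at 0.72 in sir2∆.

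**Figure D3:**
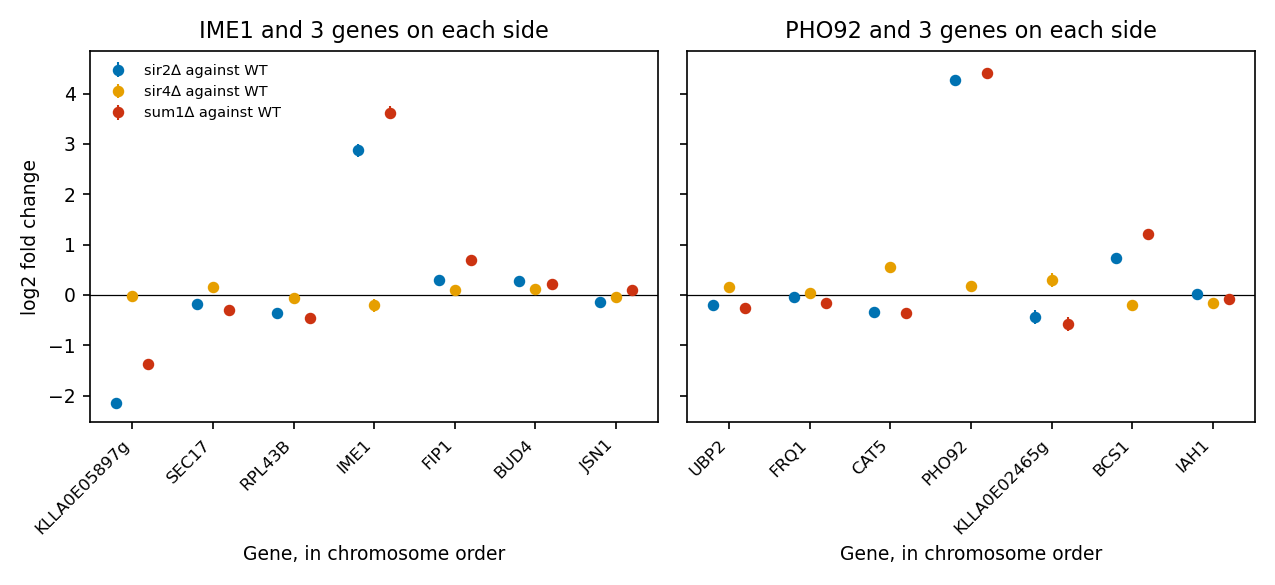
Log2 fold change against WT of IME1 (left) and PHO92 (right) and of the 3 genes on each side, in chromosome order, with the limma standard error; blue is sir2∆, orange sir4∆ and red sum1∆. IME1 and PHO92 stand at 2.87 to 4.41 in sir2∆ and sum1∆, and the directly adjacent genes lie between -0.58 and 0.70.

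Transcripts whose pattern over the 8 libraries was most like that of IME1 or PHO92 were found by the root mean square difference of log2(FPKM + 1), each gene being centred on its own mean. The named genes nearest IME1 were PRM1, a membrane protein of mating cells (difference 0.18 log2 units), DIT2, a cytochrome P450 of dityrosine synthesis (0.23), OSW2, an outer spore wall protein (0.23), AMA1 (0.26) and SSP1, a coat protein of the prospore membrane's leading edge (0.26). OSW2, for example, stood at 37.2 and 33.7 FPKM in sir2∆, 3.61 and 4.13 FPKM in sir4∆, 66.3 and 67.4 FPKM in sum1∆, and 3.01 and 2.63 FPKM in WT. The named genes nearest PHO92 were MOH1, a gene of stationary phase (0.15), BAR1, a secreted protease that degrades alpha factor (0.25), CTS2, a chitinase homologue (0.27), the sporulation gene SSP2 (0.27) and CRR1, a spore wall glycosidase (0.32). PHO92 was the 56th of 5021 genes by nearness to IME1 and IME1 the 39th by nearness to PHO92, at a difference of 0.53. All 10 stood lower in both sir2∆ libraries than in both sum1∆ libraries, as IME1 and PHO92 did. The 10 were chosen for nearness over these same libraries, so this order is no separate support. BAR1 and SSP2 averaged under 1 FPKM in sir4∆ and in WT, and passed the filter only through sir2∆ and sum1∆. Membership depended on the measure: with a pseudocount of 5, 3 of the 5 genes near IME1 and 2 of the 5 near PHO92 were kept, and by Pearson correlation 1 and 2.

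**Figure D4:**
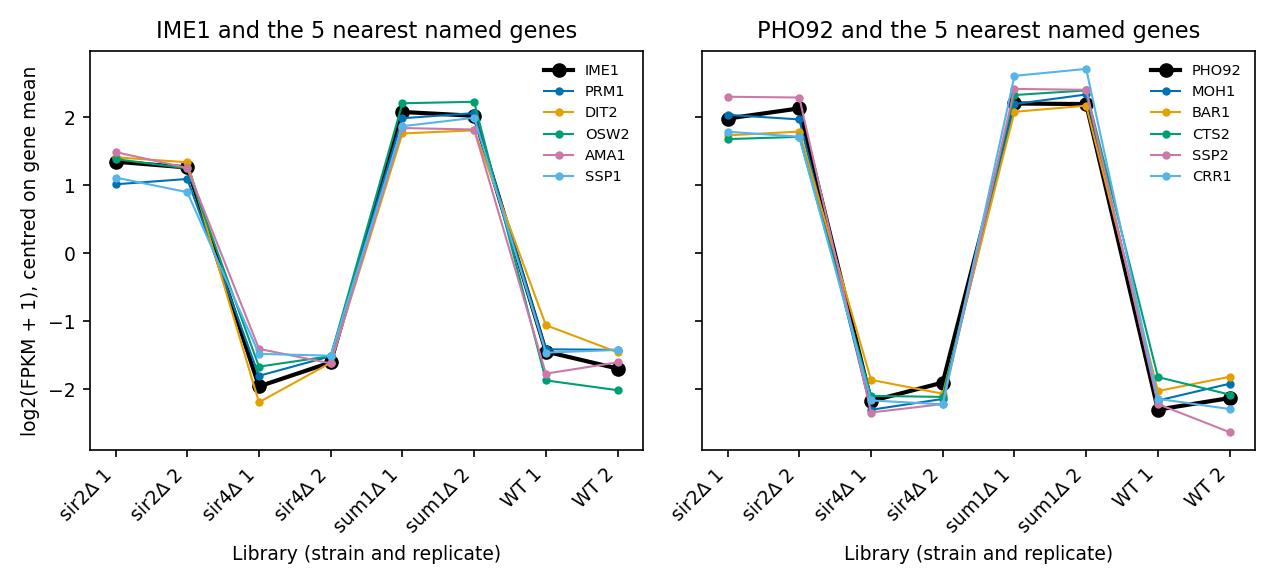
Levels of IME1 (left) and PHO92 (right), black, and of the 5 named genes with the nearest pattern, as log2(FPKM + 1) centred on each gene's mean over the 8 libraries, by strain and replicate. Both sets are high in the sir2∆ and sum1∆ libraries and low in sir4∆ and WT, and both are higher in sum1∆ than in sir2∆. The named genes were chosen for this likeness.

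Markers of cell type and growth state also differed between the strains. Only the a-cell sum was high in sir2∆ and sum1∆ and low in sir4∆ and WT. Of 8 listed a-cell markers 6 were found, none at 0, and their summed level was 274 to 318 FPKM in sir2∆, 35.1 to 35.2 FPKM in sir4∆, 330 to 349 FPKM in sum1∆ and 30.5 to 34.0 FPKM in WT. The difference lay in AGA2, which had 218 and 262 FPKM in sir2∆, 6.98 and 6.23 FPKM in sir4∆ and 271 and 290 FPKM in sum1∆, against 4.98 and 5.75 FPKM in WT. BAR1 and ASG7 were also called, while STE2 and STE6 were not. In sir2∆ and in sum1∆ 3 of the 6 rose, where 4.9% and 7.73% of all tested genes rose. None of the 6 was called in sir4∆, where 1.35% of all tested genes were called in either direction. BAR1 averaged 17.2 FPKM in sir2∆, 0.384 FPKM in sir4∆, 22.4 FPKM in sum1∆ and 0.425 FPKM in WT. It passed the filter of a mean of 1 FPKM only through sir2∆ and sum1∆, so its call is no support. The ASG7 call in sum1∆ (1.03) was lost without WT replicate 1 (0.89) and without sum1∆ replicate 1 (0.82). A pseudocount of 5 took ASG7 under the threshold in sir2∆ (0.78) and sum1∆ (0.69), as did quantile normalization (0.48 and 0.40). AXL1 was called higher in sir2∆ (1.01) and sum1∆ (1.03) without WT replicate 2. Of 7 alpha-cell markers 3 were found, none at 0, with sums of 36.7 to 37.7 FPKM in sir2∆, 51.2 to 53.5 FPKM in sir4∆, 44.7 to 48.7 FPKM in sum1∆ and 36.8 to 38.7 FPKM in WT. None of the 3 was called in any mutant. Of all tested genes 5.62% were called in either direction in sir2∆, 1.35% in sir4∆ and 10.6% in sum1∆. The part of the cell type markers in the levels of IME1 and PHO92 was not tested.

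Of 10 listed growth state markers 9 were found, none at 0, and their summed level was 6723 to 8437 FPKM in sir2∆, 21082 to 24462 FPKM in sir4∆, 1696 to 1869 FPKM in sum1∆ and 5406 to 6662 FPKM in WT. HSP12, a small heat shock protein, made up most of the sum, at 6935 and 5406 FPKM in sir2∆, 21638 and 18592 FPKM in sir4∆, 846 and 940 FPKM in sum1∆, and 4045 and 5069 FPKM in WT. Without HSP12 the sum of the other 8 was 1317 to 1502 FPKM in sir2∆, 2489 to 2825 FPKM in sir4∆, 849 to 929 FPKM in sum1∆ and 1361 to 1592 FPKM in WT. In sir2∆ 2 of the 9 rose (MOH1 and ICL1) and 1 fell (SPG4), where 4.9% of all tested genes rose and 0.717% fell. In sir4∆ 2 rose (HSP12 and CTT1) and none fell, where 0.617% rose and 0.737% fell. In sum1∆ 1 rose (MOH1) and 6 fell (HSP12, CTT1, SPG4, TPS1, FBP1 and PCK1), where 7.73% rose and 2.87% fell. When depth class, added once the data had been seen, entered the fit, CTT1 (-0.96) and TPS1 (-0.94) in sum1∆ were short of the threshold, and both sum1∆ libraries are deep. Without WT replicate 2 the sum1∆ calls of CTT1 (-0.91) and TPS1 (-0.90) were lost and TPS1 was called higher in sir4∆ (1.03), and without WT replicate 1 TPS1 was called lower in sir2∆ (-1.04). With or without HSP12 the sum in sum1∆ was below that in WT, while in sir2∆ it was above WT only with HSP12, which was not called there (0.44), and overlapped with WT without it. The part of these markers in the levels of IME1 and PHO92 was not tested.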

How the data were processed

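The authors deposited FPKM values, 1 file per library with 5076 genes, per the file headers. The submitters' processing notes name TopHat2 2.0.10 and Cuffnorm 2.2.1, with no genome build in the sources used here. Per the labels' protocols, DNase-treated total RNA was made into libraries that keep no strand and read as single 50-base reads. Reads may be shared between close paralogs. Every one of the 5076 identifiers matched the reference gene table (assembly ASM251v1), which named 3959 and was used only for symbols, coding lengths (97.8% are multiples of 3) and gene order.

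Read depth came from the spacing of low FPKM values, under assumed fragments of mean 200, SD 80 and at least 50 bases. Of genes with at most 100 reads and over 600 bases, 95.7% to 100% came out whole within 0.1. Replicates differed by more than counting noise (chi-square per degree of freedom 4.67 to 16.8).

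Genes averaging 1 FPKM or more, 5022 in all, entered a limma 3.58.1 fit (R 4.3.3) of log2(FPKM + 1) with a mean-variance trend. The 4 groups shared 1 estimate of spread (residual degrees of freedom 4, prior 4.02), with Benjamini-Hochberg adjustment over all 5022. The fit was also run on simulated data as a check of the code. The genes changed there were not weakly expressed, so that run does not cover levels as low as those of IME1 and PHO92 in WT. Python 3.11.15, numpy 2.4.6, pandas 2.3.3, scipy 1.17.1 and matplotlib 3.10.9 did the rest.

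Members, lists and tests were chosen with earlier results of these data known. Named were IME1, PHO92, SUM1 and KLLA0F14663g, and the 5 named genes nearest IME1 and nearest PHO92 in pattern. Also named were the 3 neighbours on each side, list genes called in a mutant and a fixed set of regulators. CLN3, RIM101, XBP1, PHO2, SMK1, ZIP1, DMC1, SPO13, MSH4 and the genes called only under an alternative were chosen after their values were seen. Alternatives were pseudocounts of 0.25 and 5, no filter, quantile and median-ratio scaling, a replicate block, leaving out each library, no fold threshold, fitting 2 groups alone and, chosen after seeing the data, depth class as a term. Promoter sequences were not used here.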

Additional observations from a re-analysis of the deposited data

How the results depend on the processing

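Log2 changes against WT depended on the handling of low values, since the WT level is low. For IME1 they were 3.08 in sir2∆ and 3.84 in sum1∆ with a pseudocount of 0.25, 2.16 and 2.84 with 5, and 2.40 and 3.11 with quantile normalization, which gave -0.030 in sir4∆. For PHO92 they were 4.53 and 4.67, 3.39 and 3.52, and 3.78 and 3.87. Leaving out 1 library gave IME1 2.75 to 2.996 in sir2∆, -0.39 to -0.034 in sir4∆ and 3.49 to 3.74 in sum1∆, and PHO92 4.18 to 4.35, 0.040 to 0.31 and 4.32 to 4.49. Quantile normalization gave IME1 levels of 5.43 FPKM in sir4∆, 55.5 in sum1∆ and 5.57 in WT, and PHO92 levels of 6.16, 86.1 and 4.97, and shifted the median of all genes by less than 0.1. With depth class as a term IME1 was at 3.58 and PHO92 at 4.41 in sum1∆.

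Of the pathway genes 12 to 14 rose in sir2∆, 0 to 1 in sir4∆ and 13 to 15 in sum1∆ without 1 library; without sir2∆ replicate 1, where SPO11 was not tested, they were 12 and 14. Without the fold threshold 24 and 18 were higher and lower in sir2∆, 9 and 4 in sir4∆, 25 and 19 in sum1∆, and 11 and 11 in sir2∆ against sum1∆, and the neighbours 3 and 6, 1 and 0, 3 and 7, and 0 and 4. Quantile normalization called 3 lower in sir2∆, 3 in sum1∆, and 2 (KAR4 and IME2) in sir2∆ against sum1∆, and turned REC114 in sum1∆ to -0.11; its split of all calls in sir2∆ was 68.2% higher, against 87.2%, and in sum1∆ 61.1%, against 72.9%. The all-gene counts in sir4∆, 31 higher and 37 lower, were 17 and 20 when WT replicate 1 was left out, 70 and 62 without WT replicate 2, 49 and 64 without sir4∆ replicate 2, and 19 higher with depth class as a term. Without the fold threshold, the all-gene counts were 1452 and 1465 in sir2∆, 842 and 1051 in sir4∆, 1689 and 1635 in sum1∆, and 839 and 1214 in sir2∆ against sum1∆; with quantile normalization 90 fell in sir2∆ against 36. The causes were not tested.

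The replicate numbers do not pair libraries by any label, and differences between replicates correlated at -0.251 to 0.0251 across strains. A replicate block left 13 pathway genes higher in sir2∆ and 15 in sum1∆, and the IME1 and PHO92 changes at 2.87 and 4.27 in sir2∆. Depth limits the sir4∆ comparison, with 11 and 17 estimated IME1 reads. The promoter motif search was not run.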

Other observations

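MOH1, the named gene whose pattern was nearest that of PHO92, lies 4 positions from IME1 in the reference gene order, just outside the 3 neighbours examined. MOH1 had 309 and 294 FPKM in sir2∆, 14.4 and 16.1 FPKM in sir4∆, 344 and 380 FPKM in sum1∆, and 15.9 and 19.0 FPKM in WT. Between MOH1 and IME1 lie KLLA0E05897g, which fell in sir2∆ and sum1∆, and SEC17 and RPL43B, which were not called. The stretch was picked out on its values.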
